A study of Drosophila melanogaster with 4 samples.

Results

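Arm 3R is the right arm of chromosome 3 of *Drosophila melanogaster*, and its interior is the gene-rich stretch between the sequence near the centromere and the sequence near the telomere. Binding of Su(var)3-7 was described here over 21.9 Mb of this arm, 3R 5000001 to 26905053 of FlyBase release 5, which leaves out the proximal 5 Mb (the end next to the centromere) and the distal 1 Mb. Members are the enriched regions of the authors' combined list whose midpoint lies in that interval. The interval held 1143 of the 10603 combined regions, and 1704 combined regions lie on the whole assembled arm. The same interval held 468 of 6098 regions of ChIP replicate 1 and 567 of 6295 regions of ChIP replicate 2. No measured value entered the choice of the interval, although the description of it singles out 12 to 13 Mb, which was known from earlier results of these data.

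Su(var)3-7 is a zinc-finger protein that binds the heterochromatin protein HP1a, and the dose of its gene alters position-effect variegation, the patchy silencing of genes placed next to heterochromatin. On polytene chromosomes it is known mainly from the chromocentre, the small chromosome 4 and telomeres, with fewer sites along the gene-rich arms. The interior of 3R is sequence of that last kind.

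The samples were whole embryos of the wild-type strain Oregon-R aged 14 to 16 h, raised in population cages and fixed in 1.8% formaldehyde. Chromatin immunoprecipitation with the antibody Q3448 against Su(var)3-7 gave 2 ChIP libraries, and 2 libraries of input DNA served as controls, 1 for each ChIP library. The inputs carry no values of their own in the lists, and the labels do not state whether the replicates are separate embryo collections. Whole embryos mix many cell types, so a region cannot be assigned to one of them.

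The lists give the limits of every enriched region together with 1 score. The score is the authors' own value; the sources used here do not state its scale or log base, and it serves below to rank and describe regions within a list. The read depth of the libraries is unknown, because the lists hold no read counts. Coverage means the percent of bases inside enriched regions.

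Su(var)3-7 regions covered a small part of the interior. Coverage was 4.93% in replicate 1 and 5.83% in replicate 2, with a mean of 5.38% ± 0.638 (SD, n = 2). The combined list covered 11.7%, or 2.57 Mb. Density was 52.2 regions per Mb for combined regions, 21.4 for replicate 1 and 25.9 for replicate 2, so the combined list was denser than either replicate list. Next to it, the proximal 5 Mb of the same arm was covered over 21.9% in replicate 1 and 21.3% in replicate 2.

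Coverage was uneven along the interior. Among 22 windows of 1 Mb (the last one cut at the distal limit), the mean of the replicates ran from 1.94% to 15.95% with a median of 4.42%, and 14 windows lay under 5%. The highest was 5 to 6 Mb, the window next to the proximal limit, with 15.4% in replicate 1 and 16.5% in replicate 2 (mean 15.95% ± 0.845). It was followed by 12 to 13 Mb, with 10.8% and 12.2% (mean 11.5% ± 1.02), and by 7 to 8 Mb, with 9.23% and 11.1% (mean 10.2% ± 1.31; SD, n = 2 each). The window from 5 to 6 Mb was above every other window in both replicates. The window from 12 to 13 Mb was above that from 7 to 8 Mb in each replicate, although their ranges over the replicates overlapped. The combined list gave 30.5%, 19.4% and 20.8% for these 3 windows, with the last 2 in the reverse order.

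The 3 windows with the lowest means all lay beyond 15 Mb. They were 15 to 16 Mb, with 1.84% in replicate 1 and 2.04% in replicate 2 (mean 1.94% ± 0.140), 23 to 24 Mb, with 1.21% and 2.88% (mean 2.04% ± 1.18), and 22 to 23 Mb, with 2.06% and 2.28% (mean 2.17% ± 0.150; SD, n = 2 each). The window from 15 to 16 Mb was below that from 22 to 23 Mb in both replicates. The place of 23 to 24 Mb was not resolved, since it was the lowest of the 3 in replicate 1 and the highest in replicate 2. Replicate 2 exceeded replicate 1 in 20 of the 22 windows. Across the windows the coverage of the replicates had a Spearman rank correlation of 0.870, given as a description since windows share their libraries and neighbouring windows are not independent.

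**Figure D1:**
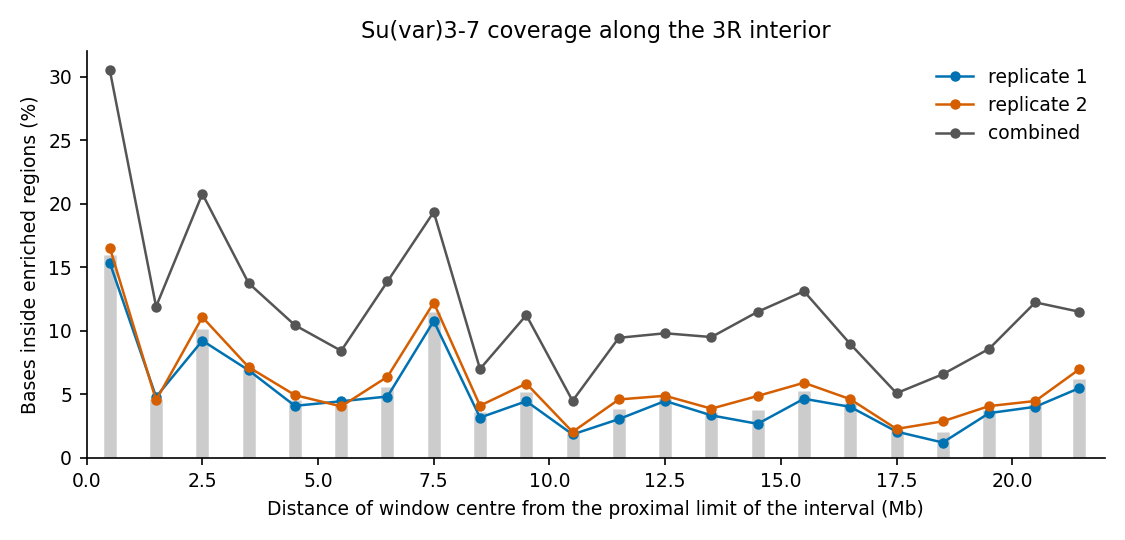
Percent of bases inside Su(var)3-7 regions in 22 windows along the 3R interior, against the distance of each window's centre from the proximal limit in Mb; points joined by lines show replicate 1, replicate 2 and the combined list, and grey bars show the mean of the replicates. The leading window, next to the proximal limit, has a mean of 15.95%, and the window at 7.5 Mb from the limit (12 to 13 Mb of the arm) has 11.5%.

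Taken in 4 stretches, coverage was 8.46% ± 0.548 between 5 and 10 Mb, 6.03% ± 0.696 between 10 and 15 Mb, 3.57% ± 0.690 between 15 and 20 Mb and 3.98% ± 0.625 beyond 20 Mb (SD, n = 2 each). The first stretch exceeded each of the others in both replicates. The values of 15 to 20 Mb, 3.08% in replicate 1 and 4.05% in replicate 2, were below those beyond 20 Mb, 3.54% and 4.42%, in each replicate. The ranges of these 2 stretches over the replicates overlapped. The median gap between neighbouring regions of replicate 1 was 7910 bp in the first stretch, 15810 bp in the second, 38638 bp in the third and 21625 bp in the last. In replicate 2 it was 6911.5, 14400, 19977 and 18206 bp in the same stretches, and for combined regions 3492.5, 6209, 5757 and 5897 bp. All 3 lists thus had their shortest median gap between 5 and 10 Mb, and both replicates had their longest between 15 and 20 Mb, while combined regions had theirs between 10 and 15 Mb. Median scores of replicate 1 were 0.549, 0.512, 0.471 and 0.532 along the 4 stretches, and those of replicate 2 were 0.645, 0.612, 0.601 and 0.614. Both replicates had the highest median between 5 and 10 Mb and the lowest between 15 and 20 Mb, whereas the medians of combined regions were 0.380, 0.373, 0.378 and 0.391.

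Many neighbouring regions of the interior lay close together, and a few long gaps held much of the empty length. The median gap was 5019 bp in the combined list (95% order-statistic interval 4447 to 5687 bp), 17456 bp in replicate 1 and 13064.5 bp in replicate 2. It was 8724 bp after combined regions less than 1 kb apart were merged, and 30809 bp for the combined regions found in both replicates. The order-statistic interval treats the gaps of 1 list as independent, which neighbouring gaps are not. It does not cover the spread between libraries or settings, and all of these other medians lie outside it. In the combined list 20.8% of 1142 gaps were under 1 kb and another 29.1% were 1 to 5 kb, and together they made up little of the gap length (0.522% and 4.71%). The 40 gaps of 100 kb or more were 3.50% of the gaps and held 30.9% of the gap length. In replicate 1 there were 58 such gaps, with 56.0% of the gap length, and in replicate 2 there were 54, with 49.0%.

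**Figure D2:**
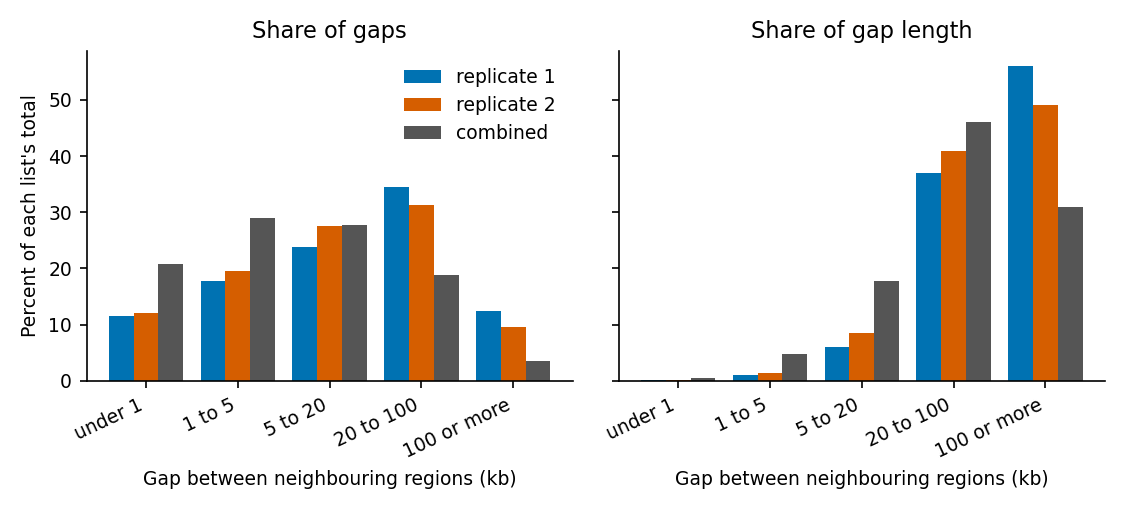
Gaps between neighbouring regions of the 3R interior in 5 size classes (kb), for replicate 1, replicate 2 and the combined list. The left panel gives each class as a percent of the number of gaps and the right panel as a percent of their summed length; gaps of 100 kb or more are 3.50% of combined gaps and 30.9% of their length.

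The 40 empty stretches of the combined list (100 kb or more without a region) added up to 5.96 Mb, 27.2% of the interval. The longest was 3R 23782172 to 24159247, 377.1 kb without a region in any of the 3 lists. The next were 8550721 to 8785030 (234.3 kb), 6721045 to 6943179 (222.1 kb), 23532331 to 23742508 (210.2 kb) and 24172180 to 24368831 (196.7 kb), and both replicates listed 0 regions in each. Of these 5 stretches, 3 follow one another between 23532331 and 24368831. Of the 40 stretches, 34 were without a region in either replicate, 2 held a region of replicate 1 and 4 held a region of replicate 2. By position, 5 of the stretches began between 5 and 10 Mb, 8 between 10 and 15 Mb and 10 between 15 and 20 Mb. Another 17 began between 20 and 26.9 Mb, a longer piece than the others. An empty stretch means that no region passed the authors' call there, not that the protein is absent.

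The count of empty stretches follows the limit that defines them. There were 100 at 50 kb, 4 at 200 kb and 63 of at least 100 kb between combined regions found in both replicates.

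The 1143 regions formed 573 clusters when neighbours at most 5 kb apart were joined. Of these, 313 were single regions, 212 held 2 to 4 regions and 48 held 5 or more, with at most 12. The 48 large clusters contained 303 regions and 30.6% of the covered bases. Replicate support was alike in the 3 classes: 28.4% of single regions (95% Wilson interval 23.7 to 33.7), 26.0% of regions in clusters of 2 to 4 (22.4 to 29.9) and 31.0% of regions in large clusters (26.1 to 36.4) overlapped both replicates. Such intervals reflect counting error alone, and neighbouring regions are not independent of each other.

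The cluster with the most covered bases was 3R 12024073 to 12095877, a run of 7 combined regions that fills 62236 bp of 71.8 kb. The combined regions took 86.7% of its span, the 7 regions of replicate 1 63.3% and the 12 regions of replicate 2 77.2%. Its backbone was 4 wide regions found in both replicates, 12030214 to 12040174 (9961 bp, score 1.24), 12043334 to 12053807 (10474 bp, score 0.855), 12055225 to 12063980 (8756 bp, score 0.845) and 12064525 to 12091683 (27159 bp, score 1.02). The other 3 regions were narrower and had scores of 0.298 to 0.418, 2 of them in replicate 2 alone and 1 in neither replicate. In replicate 1 the wide right-hand block was split into 2 regions, and in replicate 2 into 4.

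**Figure D3:**
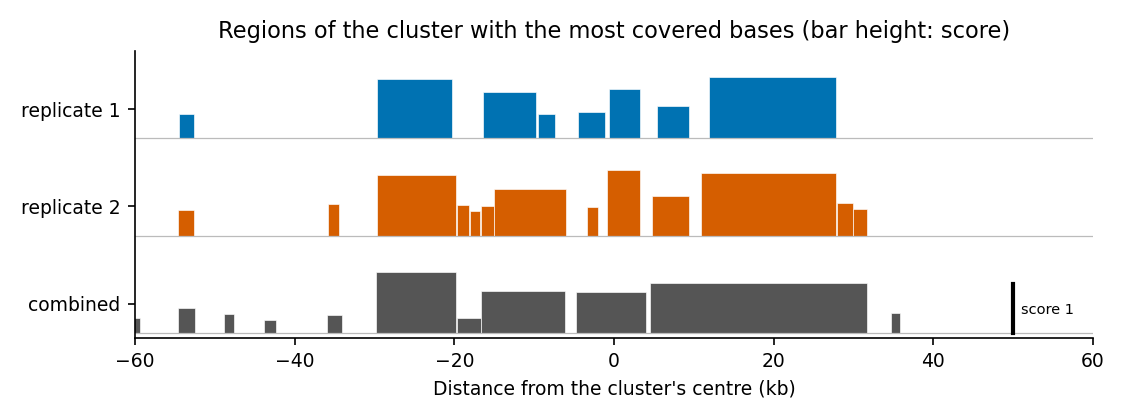
Enriched regions of the cluster with the most covered bases in the 3R interior, and of its surroundings, in replicate 1, replicate 2 and the combined list, against the distance from the cluster's centre in kb. Each bar spans a region and its height is the authors' score (scale bar, score 1); the widest bar at the right is the 27159 bp combined region, which both replicates list in pieces.

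The cluster lies at the proximal edge of the window from 12 to 13 Mb, and the window is uneven. Coverage was 18.3% in replicate 1 and 19.7% in replicate 2 over its proximal 50%, and 3.24% and 4.76% over its distal 50%. The window as a whole had 2.27-fold ± 0.0757 the coverage of the rest of the interval (SD, n = 2), made up of 2.32 for replicate 1 and 2.21 for replicate 2, and combined regions gave 1.70. The ratio was 1.37 once the bases of the leading cluster were left out, a setting chosen after the data were seen. It was 0.995 with the window moved 250 kb toward the telomere and 2.31 with it moved 250 kb toward the centromere. For 5 to 6 Mb the ratio to the rest of the interval was higher, 3.47 in replicate 1 and 3.11 in replicate 2. The window from 5 to 6 Mb is part of the rest against which 12 to 13 Mb was set.

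The window held 69 combined regions, 23 in both replicates and 26 in neither. Its 10 highest-scoring regions all overlapped both replicates, with scores of 0.628 to 1.68, and 4 of them belong to the leading cluster. The leading region of the window was 12623272 to 12625641, 2370 bp wide, which scored 1.68 among combined regions, 1.51 in replicate 1 and 1.78 in replicate 2. It stands alone. The stretch before it, 12482508 to 12623271, is empty over 140.8 kb, the stretch after it, 12625642 to 12694102, is empty over 68.5 kb, and both replicates listed 0 regions in either. The second, 12446434 to 12451705, had a combined score of 1.30, with its best replicate regions at 1.60 in replicate 1 and 1.72 in replicate 2. Others outside the cluster were 12256436 to 12258613 (combined score 0.941), 12273423 to 12279712 (0.767), 12694103 to 12696175 (0.665) and 12320474 to 12325938 (0.628).

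Ranked by covered bases, 4 clusters followed, and the replicates covered a lower percent of each. These were 5211558 to 5272500 (12 regions, 38.9% in replicate 1 and 41.6% in replicate 2), 21821549 to 21868853 (8 regions, 43.9% and 53.7%), 5568869 to 5612817 (12 regions, 47.5% and 49.5%) and 8499925 to 8550720 (11 regions, 26.6% and 27.9%). The replicate values of the leading cluster, 63.3% and 77.2%, lay above all of these. The cluster from 5211558 had its best score at 0.651 and the one from 5568869 at 0.639, whereas the one from 21821549 reached 1.39. Of the 48 large clusters, 8 began between 5 and 6 Mb, and the 110 combined regions of that window had a median score of 0.397. Directly after the cluster from 8499925 began the second longest empty stretch.

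Across 219 whole windows of 100 kb, the most covered was 12000001 to 12100000, with 47.4% in replicate 1 and 57.4% in replicate 2. It was followed by 5300001 to 5400000, with 32.0% and 31.2%. The 10 most covered windows held 24.7% of the covered bases of replicate 1, 22.9% of those of replicate 2 and 17.3% of those of the combined list. At the other end, 57 windows were empty in replicate 1, 45 in replicate 2, 38 in both replicates and 21 in the combined list.

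Among combined regions that overlap both replicates, the 10 with the highest scores ran from 1.05 to 1.68 and were 2370 to 15881 bp wide. Of these, 3 lay between 12 and 13 Mb, which held 23 of the 320 regions found in both replicates. Another 5 lay beyond 20 Mb, which held 75 of the 320. After the leading region at 12623272 came 21824459 to 21840339, 15881 bp wide, with a combined score of 1.39 and best replicate regions at 1.52 in replicate 1 and 1.79 in replicate 2. Further members were 22013512 to 22017161 (1.27 in replicate 1, 1.40 in replicate 2, 1.19 combined) and 22391626 to 22394684 (1.07, 1.32 and 1.18 in the same order). The remaining 4 were 9480290 to 9487123 (combined score 1.12), 25958620 to 25961378 (1.07), 26885860 to 26888330 (1.06) and 8153983 to 8156960 (1.05). All 10 had replicate regions with scores of at least 1.00 in both replicates, against medians over the interval of 0.515 in replicate 1 and 0.619 in replicate 2.

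The 2 highest scores of the combined list belonged to narrow regions that neither replicate lists. They were 15570116 to 15571552 (1437 bp, score 1.96) and 15990615 to 15991697 (1083 bp, score 1.83), both between 15 and 16 Mb, 1 of the 3 windows with the lowest mean coverage. The first lay 73239 bp and the second 9019 bp from the nearest region of either replicate. Of the 50 highest-scoring combined regions, 47 overlapped both replicates and 3 neither, the third of these being 20037080 to 20038231 (1152 bp, score 0.866), so the pair at the top departs from the rest of the ranking. Why the combined list scores them so highly was not tested.

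The 5 widest regions found in both replicates were 12064525 to 12091683 (27159 bp), 13523628 to 13543921 (20294 bp, score 0.866), 21824459 to 21840339 (15881 bp), 5376071 to 5391473 (15403 bp, score 0.509) and 7486153 to 7499802 (13650 bp, score 0.776). Each overlapped 2 to 3 regions of replicate 1 and 3 to 4 regions of replicate 2. The region from 5376071 had a score close to the median of regions in both replicates, so width and score did not go together in every case. Such widths were rare: 67 of 1143 combined regions (5.86%) exceeded 5 kb and 8 exceeded 10 kb. In replicate 1 there were 20 of 468 over 5 kb (4.27%) and in replicate 2 there were 25 of 567 (4.41%).

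Most regions were narrow and of moderate score. The median width was 1807 bp for combined regions, 1964 bp for replicate 1 and 1900 bp for replicate 2. Regions under 2 kb made up 61.7%, 54.1% and 59.8% of these lists in the same order. Wider regions tended to score higher, with a Spearman correlation across regions of 0.457 for 1143 combined regions, 0.714 for 468 of replicate 1 and 0.663 for 567 of replicate 2. These correlations are descriptions, since the regions of a list share its library and depth.

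Each list had a lower edge in width. No region anywhere in the replicate lists was narrower than 1301 bp, and none in the combined list was narrower than 1001 bp. Of the combined regions of the interior, 280 (24.5%) were narrower than 1301 bp, and 264 of those overlapped neither replicate. They made up 49.4% of all interior regions found in neither replicate. Of the 863 regions of at least 1301 bp, 320 (37.1%) overlapped both replicates and 270 (31.3%) neither.

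Replicate support of the combined list was limited in the interior. Of 1143 regions, 320 (28.0%, 95% Wilson interval 25.5 to 30.7) overlapped both replicates by at least 1 bp, and 534 (46.7%, 43.8 to 49.6) overlapped none. Another 102 (8.92%) met a region of replicate 1 only and 187 (16.4%) a region of replicate 2 only. By covered bases, 47.0% lay in regions with support from both replicates and 29.6% in regions with none. Among the higher-scoring 50% of the combined regions, 49.4% overlapped both replicates. The combined list is not independent of the replicates, so these shares describe how the lists relate and are no measure of reproducibility.

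Regions found in both replicates tended to score higher and to be wider than the others, but the classes overlapped. Scores ran from 0.0697 to 1.68 for both and from 0.0293 to 1.96 for neither. Regions in both replicates had a median score of 0.519 and a median width of 2889.5 bp. The medians were 0.342 and 1909.5 bp for replicate 1 alone, 0.361 and 1870 bp for replicate 2 alone, and 0.354 and 1310.5 bp for neither. Of the 107 combined regions that score above 0.6, 101 overlapped both replicates and 5 neither. With the combined list cut into 5 equal groups from the lowest to the highest score, the share in both replicates was 6.11%, 6.11%, 10.9%, 27.6% and 89.5%. Cut likewise by width, from the narrowest to the widest, it was 0 of 229, then 0.437%, 10.5%, 51.3% and 78.1%. For the 0 of 229, a limit of 3 counts allows a share of up to 1.31%, and the Wilson interval allows up to 1.65%. That narrowest group spans 1001 to 1240 bp, below the narrowest replicate region of 1301 bp. A wider region also meets a 1 bp overlap more easily, so the shares by width are no measure of reproducibility.

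**Figure D4:**
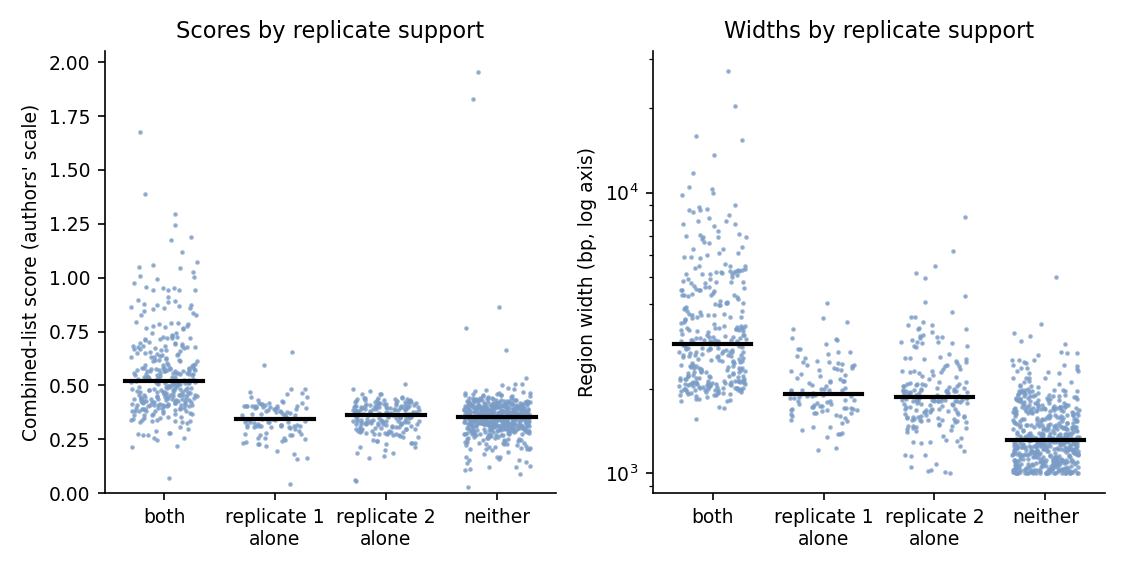
Scores (left, on the authors' scale) and widths (right, bp on a log axis) of the 1143 combined regions of the 3R interior, by whether they overlap both replicates, 1 of them alone or neither. Points are regions and black lines medians; the median score is 0.519 for regions in both replicates and 0.342 to 0.361 in the other classes, and the 2 highest points stand among the regions in neither.

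Regions in neither replicate lay at widely different distances from replicate regions. The nearest region of either replicate was 5240.5 bp away in the median (quartiles 1928 and 16072.5 bp). Of these 534 regions, 140 (26.2%) lay within 2 kb of a replicate region, 262 (49.1%) within 5 kb and 110 (20.6%) farther than 20 kb.

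Set against each other, the replicates shared more of replicate 1 than of replicate 2. Of 468 replicate 1 regions, 353 (75.4%, 95% Wilson interval 71.3 to 79.1) overlapped a replicate 2 region, and of 567 replicate 2 regions, 353 (62.3%, 58.2 to 66.2) overlapped a replicate 1 region. Replicate 2 lists more regions in this interval, so the shares have unequal denominators. The replicates had 0.803 Mb in common out of 1.55 Mb covered by either, a Jaccard index of 0.517. The shared bases were 74.4% of those of replicate 1 and 62.9% of those of replicate 2.

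Partners were most frequent at the top of each score ranking. From the lowest to the highest of 5 equal groups by score, 61.7%, 69.1%, 66.0%, 81.7% and 98.9% of replicate 1 regions had a partner in replicate 2. For replicate 2 the shares were 55.3%, 43.9%, 54.0%, 63.7% and 94.7%, so the shares of the 3 lower groups were in no order by score in either replicate. Regions without a partner had median scores of 0.481 in replicate 1 and 0.580 in replicate 2, and regions with a partner 0.544 and 0.658. Median widths without a partner were 1567 bp and 1562 bp, and with a partner 2071 bp and 2094 bp.

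Where a region of replicate 1 met a single region of replicate 2 and the reverse, the 2 calls were close in place. Of 311 such pairs, 197 had starts within 200 bp of each other and 199 had ends within 200 bp, with a median offset of 128 bp at either side. Scores of these pairs had a Spearman correlation of 0.699 across regions, and 0.671 over all 369 overlapping pairs. The replicate 2 score was the higher in 250 of the 311 pairs (80.4%), with a median difference, replicate 2 minus replicate 1, of 0.102. Whether the scores of separate lists share a scale is not given, so that difference does not measure binding.

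**Figure D5:**
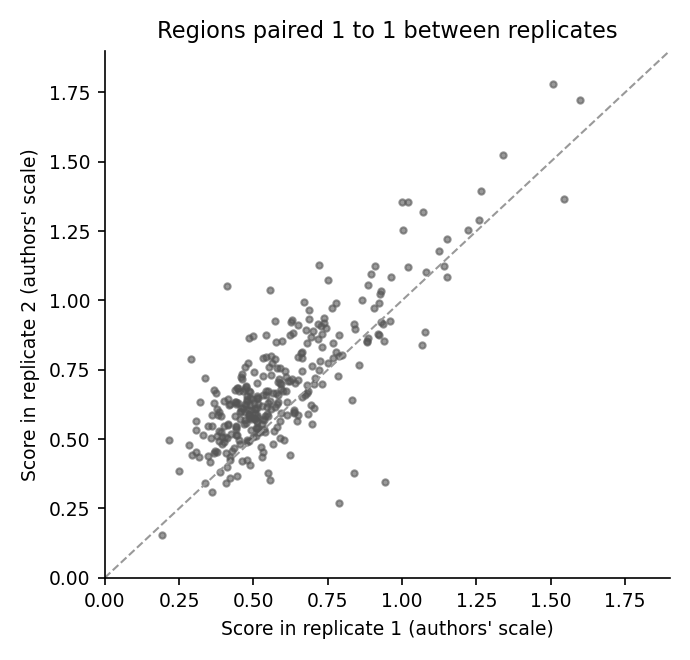
Scores in replicate 1 (horizontal axis) and replicate 2 (vertical axis) of 311 regions of the 3R interior paired 1 to 1, both on the authors' scale; the dashed line marks equal scores. Most points (250 of 311) lie above the line.

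Beside the interiors of 2L and 3L, cut in the same way, the interior of 3R was intermediate in coverage in both replicates. Mean coverage was 5.38% ± 0.638 on 3R, 5.03% ± 0.511 on 2L and 6.52% ± 0.337 on 3L (SD, n = 2 each). The values of 3R (4.93% in replicate 1 and 5.83% in replicate 2) were above those of 2L (4.67% and 5.39%) in each replicate, with overlapping ranges. They lay below those of 3L (6.29% and 6.76%). Median widths of replicate 1 were 1964 bp on 3R, 1867.5 bp on 2L and 1948 bp on 3L, and those of replicate 2 were 1900, 1910 and 1932 bp. Median scores of the combined list were 0.380 on 3R, 0.381 on 2L and 0.382 on 3L.

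Support for combined regions in both replicates was 28.0% (25.5 to 30.7) on 3R, 30.1% (27.1 to 33.2) on 2L and 31.2% (28.7 to 33.9) on 3L. Partners in replicate 1 were found for 62.3% (58.2 to 66.2) of replicate 2 regions on 3R, 69.0% (64.3 to 73.3) on 2L and 70.2% (66.3 to 73.8) on 3L. Partners in replicate 2 were found for 75.4% of replicate 1 regions on 3R, 76.0% on 2L and 75.7% on 3L. Replicate 2 had 25.9 regions per Mb on 3R and replicate 1 had 21.4, against 23.9 and 21.3 on 2L and 30.4 and 28.2 on 3L. The same 2 ChIP libraries were measured on every arm, and no test of these differences was made.

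The interior was farther from the proximal 5 Mb of its own arm in these values. Coverage was 5.38% ± 0.638 in the interior, against 21.6% ± 0.428 in the proximal 5 Mb (SD, n = 2 each). Combined regions had a median width of 1807 bp in the interior and 2117 bp in the proximal 5 Mb, and median scores of 0.380 in the interior and 0.419 in the proximal 5 Mb. They overlapped both replicates in 28.0% of cases in the interior and in 45.9% (41.7 to 50.2) in the proximal 5 Mb. These shares take no account of coverage or width, both larger in the proximal 5 Mb, where a 1 bp overlap is met more easily. The first member inside the proximal limit, 5063657 to 5066294, had a score of 0.522 and the last region outside it, 4951427 to 4952566, had 0.354. At the distal limit, the last member, 26899820 to 26907533, had a score of 0.871 and the next region outside, 26911257 to 26913366, had 0.948. The last member extends past the distal limit. Genes and sequence under the regions were not analysed here.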

How the data were processed

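Su(var)3-7 ChIP-seq regions of 2 ChIP libraries and a combined list were analysed; the 2 inputs carry no values of their own. The deposited score is 1 number per region, with no unit stated. The aligner was Bowtie 0.12.7 (from the submitters' processing notes), and positions are in FlyBase release 5, per the file headers. The sources used here do not state the region caller, its thresholds, the treatment of repeats or the making of the combined list. A calling limit leaves weaker binding out. Depth is unknown, so no interval for binding could be given.

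Regions were assigned to the interval by midpoint, and coverage was clipped to it. Overlap means at least 1 bp. Interval functions were tested on simulated data. Shares carry 95% Wilson intervals, for counting error only. With 2 ChIP libraries and no second group no test was made; means have the SD over 2 replicates. Alternatives were 50% reciprocal overlap, the higher-scoring 50% of a list, other limits and windows, merged neighbours and each replicate alone. Named regions are the 10 highest-scoring and 5 widest in both replicates, the 5 longest empty stretches, the 5 clusters with the most covered bases, the 3 highest and 3 lowest windows, the highest-scoring region in neither replicate, the regions at the limits and the 10 highest-scoring of 12 to 13 Mb; further regions in neither replicate were named after their values were seen. The interval, the members and these rules were chosen with earlier results of these data known. Regions are named by position, because gene positions were at hand only in release 6. Python 3.11.15, NumPy 2.4.6, SciPy 1.17.1 and Matplotlib 3.10.9 were used.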

Additional observations from a re-analysis of the deposited data

How the results depend on the processing

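Of 37 values under alternative settings, 18 stayed within 1 SD, the 95% interval or, for counts, 1.5 times of the reported value, and 19 moved. The 19 include the rank correlation of scores, which has none of these limits. The 18 include every value from 1 replicate alone, which could not move, so the tally is no measure of stability. No paired analysis was possible because replicate numbers are shared by ChIP and input libraries, and the input libraries carry no values. Intervals were measured in the same 2 ChIP libraries; their values are given by replicate, without a test. With 50% reciprocal overlap, partners were found for 68.2% of replicate 1 and 56.3% of replicate 2 regions, 22.4% of combined regions matched both replicates and 50.4% none, and the rank correlation of scores was 0.723; a stricter overlap matches fewer regions by construction. With the higher-scoring 50% of each replicate list, mean coverage was 3.35%. Partners were then found for 68.4% of replicate 1 and 57.2% of replicate 2 regions (both lists being cut to 50%). With the combined list cut to its higher-scoring 50%, 49.4% of its regions were in both replicates and 31.7% in neither. The ratio of 12 to 13 Mb to the rest was 2.75 with the higher-scoring 50% of each replicate list. That ratio was 0.995 with the window moved 250 kb distally, 1.77 by number of regions and 1.37 without the leading cluster. The median gap was 8724 bp with neighbours merged and 30809 bp for regions in both replicates. Empty stretches numbered 100 at 50 kb, 4 at 200 kb and 63 between regions in both replicates. The 573 clusters became 788 with a joining distance of 2 kb and 421 with 10 kb. The setting without the leading cluster was chosen after the data were seen. Each replicate alone could not move a mean beyond its SD, since either of 2 values is always within 1 SD of their mean. The unknown depth limits all of these: an empty stretch or a missing partner may lie just under the calling limit.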

Other observations

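The combined list is more than a union of the replicate lists in the interior of 3R. Of the 468 replicate 1 regions 1 had no overlap with it, and of the 567 replicate 2 regions 9. Of its covered bases, 59.0% lay in a region of either replicate, and it took in 97.8% of the bases that either replicate covers. Combined regions with exactly 1 partner in each replicate numbered 265. Their score was below both replicate scores in 156, between them in 104 and above both in 5. Whether separate lists share a score scale is not given, so scores set side by side between lists, here and below, do not measure binding. Of the 265, 243 were wider than either partner, with a median width of 2637 bp against 2017 bp in replicate 1 and 2047 bp in replicate 2. Another 60 combined regions joined several regions of a replicate.

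At the lower end of the score range, support by both replicates was rare. Of 29 combined regions scoring under 0.2, 17 overlapped neither replicate and 1 overlapped both. Over all 1143 combined regions, 534 overlapped neither and 320 both. The share in both was also low, 6.11%, 6.11% and 10.9%, in the lowest 3 of 5 equal score groups. Those groups reach up to a score of 0.401, so low support was not particular to scores under 0.2. The lowest scores were 0.0293 at 17211078 to 17212801, in neither replicate, 0.0431 at 12744009 to 12745920, in replicate 1 alone with a score of 0.239 there, and 0.0577 at 14453510 to 14455362, in replicate 2 alone with a score of 0.365 there.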
